A study of Mus musculus with 16 samples.

Results

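The genes described here encode proteins of the photoreceptor ribbon synapse, the output synapse of rods and cones. They are Ctbp2, Bsn, Pclo, Unc13b, Cacna1f, Cacna2d4, Cabp4, Slc17a7, Egflam and Dag1. They were chosen by name, and their probes are all non-control probes whose RefSeq accession in the array files belongs to one of them. That gave 13 probes for 10 genes, of 55681 non-control probes on the array and 19022 genes tested. Pclo had 4 probes and each other gene had 1.

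Photoreceptors release glutamate continuously in the dark, and the synaptic ribbon, a plate anchored at the release site, holds vesicles ready for that release. Calcium enters beside the ribbon through an L-type channel that closes when light hyperpolarises the cell. In the cleft, an extracellular matrix protein bound to dystroglycan aligns the terminal with the dendrite tips of bipolar cells.

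RNA was measured on single-colour Agilent arrays in samples that held retina and retinal pigment epithelium (RPE), the pigmented layer behind the photoreceptors, as a single RNA preparation. The 4 groups of 4 mice each were nm3342 mutants at 1 month, wild types at 1 month, nm3342 mutants at 1 year and wild types at 1 year, all labelled male on a C57Bl/6J background. The series title presents nm3342 mice as possibly modelling serous detachment, where fluid parts the retina from the RPE. Which gene nm3342 alters is not stated in the labels, and no targeted gene could be checked. Every level below is log2 of the background-subtracted probe signal relative to the 75th percentile of its array, so 0 is that percentile. Because probes differ in how well they hybridise, levels of the set were compared between arrays and never between genes. The 1 exception was sex: an array had a female pattern where its level of Xist was above that of Ddx3y, both sex-linked genes.

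All 13 probes were well above background on 16 of 16 arrays. Of the non-control spots, 82.1% to 89.6% were well above background on each array, and the number of arrays limits the precision. On 3 arrays, replicates 2 and 3 of the mutants at 1 month and replicate 1 of the mutants at 1 year, the sex-linked genes went against the male label: Xist lay between -0.38 and -0.03 there and at most at -5.68 on the other 13. The arrays lay on 2 slides of 8, with 2 arrays of every group on each. Replicate 4 of the mutants at 1 month also stood apart: its erythrocyte marker mean was 2.98, against -1.01 to -0.32 on the other 3 of its group, and its lens mean was the highest of the 4. It had the lowest rod and cone marker means of its group, 6.36 and 2.61, against 6.63 to 6.67 and 3.03 to 3.16. Without the arrays with a female pattern, only replicates 1 and 4 of the mutants at 1 month remain. Values given below without those arrays thus lean on replicate 4 wherever this group enters. Rod markers were clearly present, with a mean level of 18 markers between 6.14 and 6.67 on the 16 arrays. Lens markers were also present and uneven: the mean of 8 markers ran from 1.23 to 6.06 in the mutants at 1 month and from 4.4 to 5.0 in the wild types at 1 month. It ran from -1.35 to 4.59 in the mutants at 1 year and from -2.87 to 0.82 in the wild types at 1 year.

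No gene of the set was called between mutants and wild types at either age. At 1 month the changes scattered on both sides of zero. At 1 year Egflam, Cabp4 and Slc17a7 had log2 changes of -0.40, -0.39 and -0.32, with unadjusted p under 0.05 but limma adjusted p of 0.166 to 0.293. With age, Ctbp2 fell in the wild types, and Cabp4 and Egflam fell in the mutants. Each of these 3 age calls lay close to the threshold and was lost when certain single arrays were left out.

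In counts, 0 of 10 genes were called at 1 month by limma (adjusted p under 0.05), where 2.72% of all genes tested were called, and 1 had an unadjusted p under 0.05, as did 15.2% of all genes. Their median log2 change was -0.02 against 0.02 for all genes, with 5 of 10 changes positive against 54.0% of all genes. The 95% intervals of the 10 changes reached from -0.39 at the lowest to 0.45 at the highest. At 1 year 0 of 10 were called by limma, where 0.857% of all genes were, and 3 had an unadjusted p under 0.05, as did 11.4% of all genes. Their median was -0.07 against -0.01 for all genes, 4 of 10 changes were positive against 47.2% of all genes, and the intervals reached from -0.65 to 0.41. The difference between the genotype effects at the 2 ages was called by limma for 0 of 10, where 0.421% of all genes were called, and 2 had an unadjusted p under 0.05, as did 10.8% of all genes. A missed threshold does not show that the genotypes had equal levels, and these intervals give the sizes that remain possible.

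**Figure D1:**
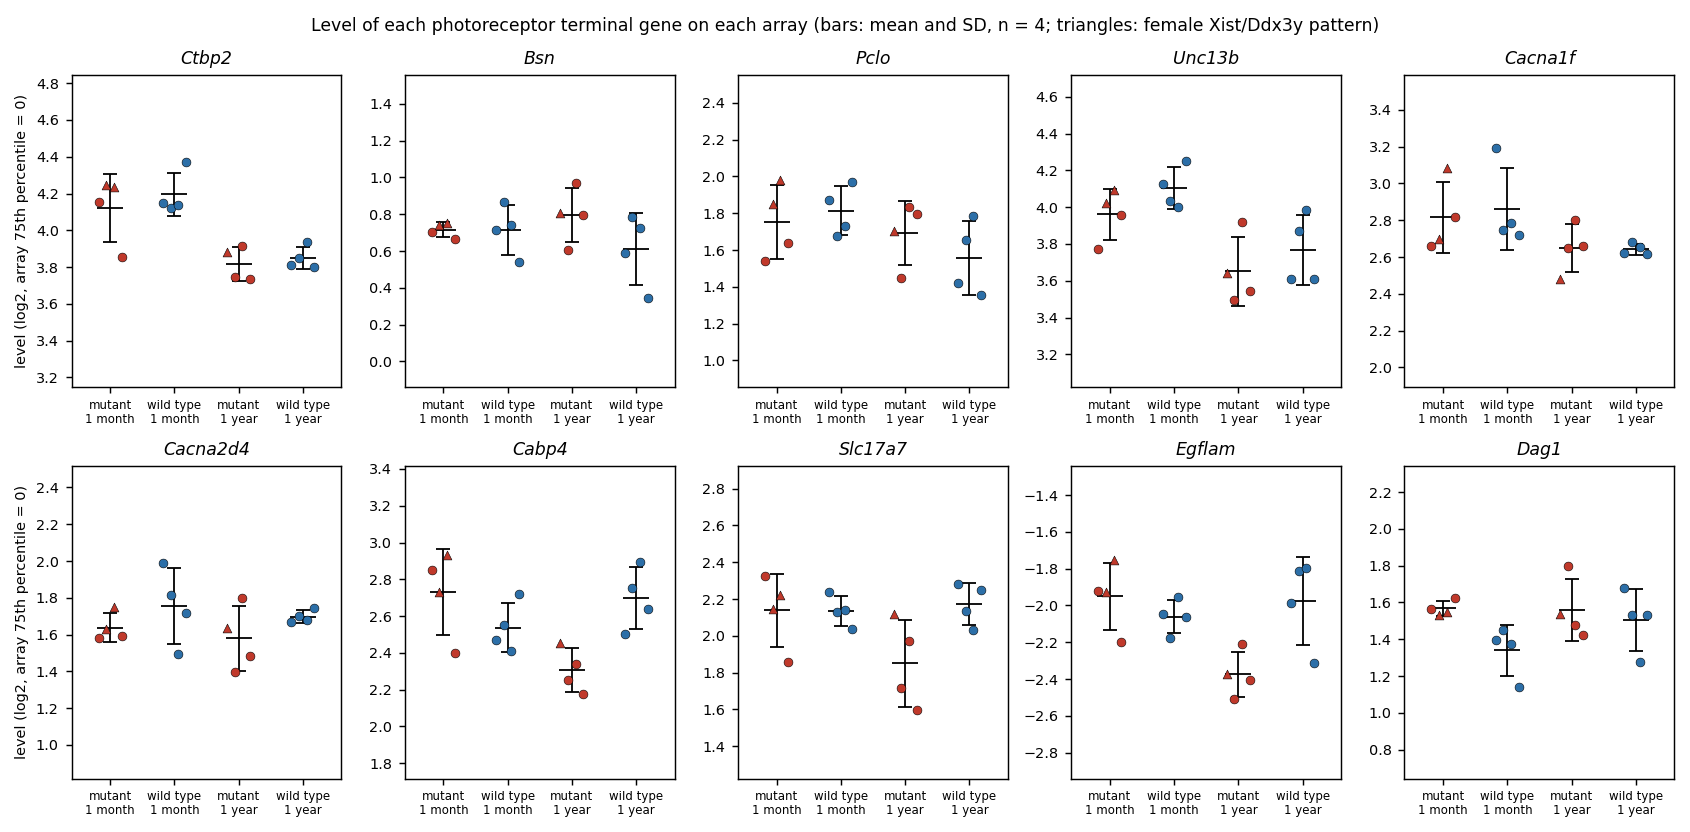
Log2 level (y axis, array 75th percentile at 0) of each of the 10 genes on each of 16 arrays, with mutants in red and wild types in blue at each age, and the mean and SD of 4 arrays as bars. All panels span the same log2 range, triangles mark the 3 arrays with the female pattern, and in the Cabp4 panel the 4 mutants at 1 year lie below the 4 wild types at 1 year.

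Over age, 1 of 10 genes was called in the wild types, where 12.4% of all genes tested were, and 2 of 10 in the mutants, where 6.70% were. All 3 calls were downward, and downward calls made up 5.05% of all genes in the wild types and 2.93% in the mutants. The median change of the 10 genes at 1 year against 1 month was -0.23 in the mutants, against -0.05 for all genes, and 1 of 10 was positive against 40.2% of all genes. For the wild types it was -0.08 against -0.03, and 4 of 10 were positive against 44.7%. Tested over all probes instead of genes, 0 of 13 probes were called over age in the mutants, where 2.79% of all probes were called. An unadjusted p under 0.05 was found for 5 of the 13, and the share of all probes at that level was not computed. In that fit the limma adjusted p was 0.0945 for Cabp4 and 0.0930 for Egflam. Both age comparisons share their arrays with the genotype comparisons, so a high or low array enters more than one of them.

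**Figure D2:**
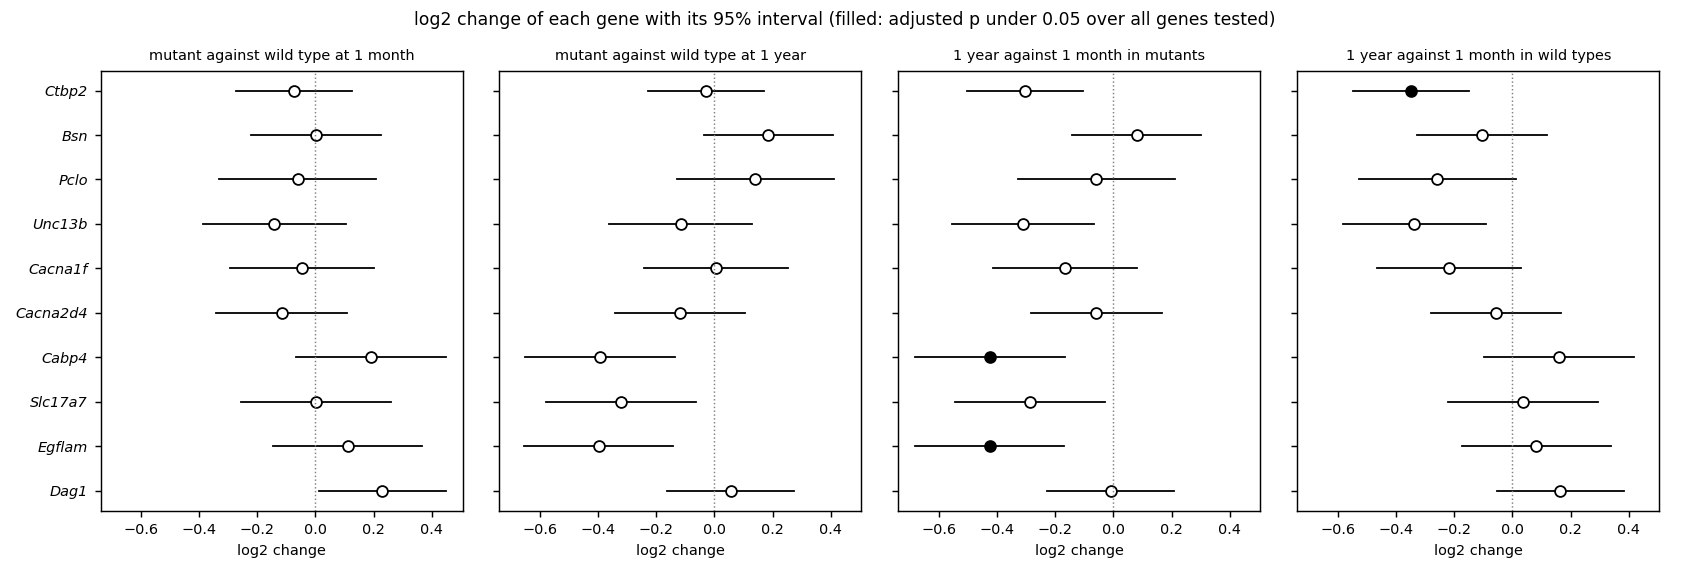
Log2 change (x axis) of each gene (y axis) with its 95% interval from limma, in the 2 genotype comparisons (mutant minus wild type) and the 2 age comparisons (1 year minus 1 month), with filled points for adjusted p under 0.05. The filled points are Cabp4 (-0.42) and Egflam (-0.43) in the mutants and Ctbp2 (-0.35) in the wild types.

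The first group of genes builds the ribbon and its release site. Ctbp2 encodes RIBEYE, the main structural protein of the ribbon, and, from another start, the transcriptional corepressor CtBP2. Which of these products its single probe reads was not determined. In the wild types Ctbp2 lay at 3.81, 3.85, 3.94 and 3.80 at 1 year, against 4.15, 4.12, 4.14 and 4.37 at 1 month. Every wild type at 1 year was below every wild type at 1 month, a separation seen in 18.9% of all genes. Ctbp2 fell by 0.35 ± 0.09 (SE, 4 arrays per group) in that comparison, a 1.27-fold difference (limma adjusted p = 0.0253). In a bulk sample, fewer cells of a type and less RNA per cell cannot be told apart. Without replicate 4 of the wild types at 1 month, the highest of its group, the change was -0.29 (limma adjusted p = 0.0643), and the call was also lost without replicate 1, 2 or 4 of the wild types at 1 year (limma adjusted p = 0.0546 to 0.0704). On slide 1 alone the difference was -0.24 and on slide 2 alone -0.45.

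In the mutants Ctbp2 lay at 3.88, 3.75, 3.91 and 3.73 at 1 year, against 4.15, 4.25, 4.24 and 3.85 at 1 month. Replicate 4 at 1 month fell among the 1-year mutants and the other 3 lay above them. The change was -0.30 ± 0.09 (limma adjusted p = 0.0687), and the difference between the age changes of the 2 genotypes was 0.04 ± 0.13 (limma adjusted p = 0.965). Without replicate 4 at 1 month the change in the mutants was -0.39 and called (limma adjusted p = 0.00687), and without the arrays with a female pattern it was -0.21 (limma adjusted p = 0.549). Between genotypes Ctbp2 differed by -0.07 ± 0.09 at 1 month, or -0.19 without the arrays with a female pattern, and by -0.03 ± 0.09 at 1 year. The lens markers moved in the same direction with age: all 8 were lower at 1 year in both genotypes, with a median change of -1.94 in the mutants and -5.07 in the wild types. With the lens mean as a covariate, an alternative chosen after the data were seen, the Ctbp2 change in the wild types was -0.46 (limma adjusted p = 0.0774). In the wild types the lens mean ran from 4.4 to 5.0 at 1 month and from -2.87 to 0.82 at 1 year. It thus nearly followed age there, and this fit cannot tell the part of the lens markers in the Ctbp2 result from age. The mean of 10 microglia markers ran from 0.22 to 0.77 in the wild types at 1 year, against -0.40 to -0.31 in the wild types at 1 month. Of these markers 5 were called higher, where 12.4% of all genes were called in either direction. Their part in the Ctbp2 result was not tested.

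Ctbp2 was the 1 member called in the wild types, and its 2 annotated starts are shown because the gene makes 2 proteins. Both windows hold the 250 bases before a start on the minus strand of chromosome 7 in RefSeq's GRCm38.p6 annotation, chr7:133081861-133082110 for the first and chr7:133015248-133015497 for the second. Capitals mark TAATCC on either strand, the core letters bound by the photoreceptor factor CRX. The table does not pair a start with a protein.
Ctbp2 start 1: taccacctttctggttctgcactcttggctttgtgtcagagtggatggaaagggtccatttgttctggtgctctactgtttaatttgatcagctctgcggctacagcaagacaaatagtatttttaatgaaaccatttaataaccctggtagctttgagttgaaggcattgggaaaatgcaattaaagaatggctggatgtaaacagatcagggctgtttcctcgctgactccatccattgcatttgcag
Ctbp2 start 2: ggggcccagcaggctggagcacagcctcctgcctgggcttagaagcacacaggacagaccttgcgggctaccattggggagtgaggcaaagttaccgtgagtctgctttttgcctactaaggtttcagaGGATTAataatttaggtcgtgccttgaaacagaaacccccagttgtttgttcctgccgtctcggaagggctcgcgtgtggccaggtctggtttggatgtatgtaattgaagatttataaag
The second window holds the motif once, read on the opposite strand, and the first does not hold it. Of 32851 promoter windows of the same length, 6.25% held TAATCC, and of the 11 windows of 8 genes in the set this was the 1 that did. TGCTGA, letters of the half-site of the rod factor NRL, was searched on both strands too and stood in 0 of the 11 windows, against 16.1% of all windows. The motifs do not overlap each other, and a match is a description of the letters.

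Bassoon (Bsn) anchors the ribbon to the membrane. It lay at 0.81, 0.61, 0.97 and 0.80 in the mutants at 1 year, against 0.59, 0.79, 0.72 and 0.34 in the wild types at 1 year. The groups overlapped, and the difference was 0.19 ± 0.10 (limma adjusted p = 0.550), with 0.04 on slide 1 and 0.34 on slide 2. At 1 month the difference was 0.00 ± 0.10, and the 4 mutants, between 0.67 and 0.75, lay within the range of the wild types, 0.54 to 0.87.

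Unc13b encodes Munc13-2, which primes vesicles for fusion. It lay at 3.61, 3.87, 3.98 and 3.61 in the wild types at 1 year, against 4.13, 4.03, 4.00 and 4.25 in the wild types at 1 month. The 2 ages did not overlap, as in 18.9% of all genes, and the change was -0.34 ± 0.11 (limma adjusted p = 0.0714). In the mutants the change was -0.31 ± 0.11 (limma adjusted p = 0.133), with 1-year levels of 3.50 to 3.92 against 3.77 to 4.09 at 1 month, and -0.21 without the arrays with a female pattern. Between genotypes it differed by -0.14 ± 0.11 at 1 month, or -0.24 without the arrays with a female pattern, and by -0.12 ± 0.11 at 1 year.

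Piccolo (Pclo) is a large relative of Bassoon at the release site. The probe with the highest mean, A_55_P2014755, was used for the gene and lay at 1.71, 1.45, 1.83 and 1.79 in the mutants at 1 year, against 1.42, 1.66, 1.79 and 1.36 in the wild types at 1 year. These groups overlapped, and the difference was 0.14 ± 0.13 (limma adjusted p = 0.749), with -0.08 on slide 1 and 0.36 on slide 2. At 1 month it was -0.06, and -0.22 without the arrays with a female pattern. Between genotypes 0 of the 4 probes were called by limma at either age and 0 had an unadjusted p under 0.05, where 1.08% of all 49230 probes tested were called at 1 month and 0.396% at 1 year. Their changes ran from -0.28 to 0.02 at 1 month and from -0.10 to 0.22 at 1 year, so the probes did not share a sign.

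With age the 4 Pclo probes did share a sign, with changes of -0.27 to -0.06 in the mutants and -0.51 to -0.26 in the wild types. Among wild types 1 of 4 was called over all probes, where 5.68% were called. That probe, A_55_P2014750, lay at -0.29, -0.10, 0.04 and -0.44 in the wild types at 1 year, against 0.21, 0.17, 0.21 and 0.64 in the wild types at 1 month. It fell by 0.51 (limma adjusted p = 0.0445 over all probes), while the probe used for the gene was -0.26 ± 0.13 (limma adjusted p = 0.208 over all genes). Replicate 4 at 1 month stood above the other 3, and the 2 ages did not overlap. Read gene by gene, the 2 ages did not overlap in 18.9% of all genes, and the share of all probes was not computed. The call was lost with slide as a block, on either slide alone and without the arrays with a female pattern, each of which gave 0 called probes.

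**Figure D3:**
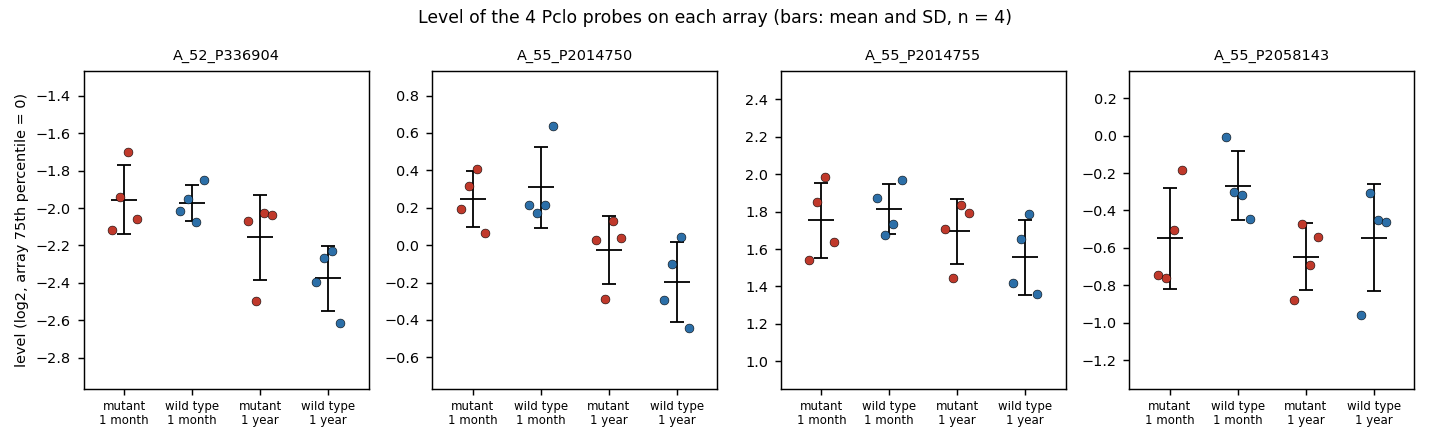
Log2 level (y axis, array 75th percentile at 0) of the 4 Pclo probes on each of 16 arrays, with mutants in red and wild types in blue at each age, and the mean and SD of 4 arrays as bars. All 4 probes are lower on average at 1 year than at 1 month in both genotypes, with changes of -0.51 to -0.26 in the wild types.

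The second group carries and tunes the calcium current. Cacna1f encodes the pore of the channel, Cav1.4, and lies on the X chromosome. It lay at 2.66, 2.70, 3.08 and 2.82 in the mutants at 1 month, against 3.19, 2.75, 2.78 and 2.72 in the wild types at 1 month. The groups overlapped, and the difference was -0.05 ± 0.12 (limma adjusted p = 0.901), with -0.21 on slide 1 and 0.12 on slide 2. At 1 year it was 0.01 ± 0.12 (limma adjusted p = 0.992), and without the array with the female pattern 0.06. With age Cacna1f was -0.17 in the mutants and -0.22 ± 0.12 in the wild types (limma adjusted p = 0.245). The 4 wild types at 1 year, 2.62 to 2.68, all lay below those at 1 month, a separation seen in 18.9% of all genes.

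Cacna2d4 encodes the auxiliary subunit alpha2delta-4 of this channel. Its levels ran from 1.39 to 1.80 in the mutants at 1 year, against 1.67 to 1.75 in the wild types at 1 year. The mutants thus spread beyond the wild types on both sides, and the difference was -0.12 ± 0.10 (limma adjusted p = 0.742). At 1 month it was also -0.12 ± 0.10, with -0.29 on slide 1 and 0.06 on slide 2.

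Cabp4 encodes a calcium-binding protein that shifts the opening of Cav1.4 to voltages at which photoreceptors work. At 1 year Cabp4 lay at 2.45, 2.25, 2.34 and 2.18 in the mutants, against 2.50, 2.75, 2.90 and 2.64 in the wild types. The 4 mutants all lay below the 4 wild types, though by only a narrow gap, and in 7.83% of all genes the groups did not overlap at that age. The difference was -0.39 ± 0.12, a 1.31-fold difference with a 95% interval of -0.65 to -0.14 (limma adjusted p = 0.173). It was -0.53 on slide 1 and -0.26 on slide 2, and -0.44 without the array with the female pattern.

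At 1 month Cabp4 lay at 2.85, 2.73, 2.93 and 2.40 in the mutants, against 2.47, 2.55, 2.41 and 2.72 in the wild types. There 3 mutants were above every wild type and replicate 4 was below them all, and the difference was 0.19 ± 0.12 (limma adjusted p = 0.486). Replicates 2 and 3, both high, have the female pattern, and without them the difference was 0.09. That leaves only replicate 1, also high, and replicate 4 in the mutants. This value thus cannot tell the female pattern from replicate 4. Without replicate 4 it was 0.30 (limma adjusted p = 0.112). The genotype effect at 1 year minus that at 1 month was -0.58 ± 0.17 (limma adjusted p = 0.168), with -0.58 on each slide and -0.53 without the arrays with a female pattern. It passed the threshold without replicate 4 of the mutants at 1 month (-0.69, limma adjusted p = 0.0483).

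Within the mutants Cabp4 fell by 0.42 ± 0.12 at 1 year relative to 1 month, a 1.34-fold difference (limma adjusted p = 0.0493). The 2 ages overlapped through replicate 4 at 1 month. In the wild types the change was 0.16 ± 0.12 (limma adjusted p = 0.426). The call in the mutants was lost in 7 of 8 fits that left out 1 array, by each array except replicate 4 of the mutants at 1 month, with limma adjusted p up to 0.157, and over the 8 fits the change was -0.53 to -0.36. Without the arrays with a female pattern the change was -0.37 (limma adjusted p = 0.371).

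Glutamate is loaded into the vesicles by the transporter VGLUT1, encoded by Slc17a7. At 1 year Slc17a7 lay at 2.12, 1.72, 1.97 and 1.60 in the mutants, against 2.28, 2.14, 2.03 and 2.25 in the wild types. Here 3 mutants were below every wild type and replicate 1, an array with the female pattern, lay inside their range. The difference was -0.32 ± 0.12, a 1.25-fold difference (limma adjusted p = 0.293), and -0.41 without that array. At 1 month the difference was 0.00 ± 0.12, with -0.18 on slide 1 and 0.19 on slide 2, from 2.33, 2.15, 2.22 and 1.86 in the mutants against 2.24, 2.13, 2.14 and 2.04 in the wild types. The difference between the 2 genotype effects was -0.33 ± 0.17 (limma adjusted p = 0.543), with -0.06 on slide 1, -0.59 on slide 2 and -0.42 without replicate 4 of the mutants at 1 month.

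The last pair spans the cleft. Egflam encodes pikachurin, the matrix protein that binds dystroglycan beneath the ribbon. At 1 year Egflam lay at -2.37, -2.51, -2.21 and -2.41 in the mutants, against -1.99, -1.81, -1.80 and -2.31 in the wild types. Replicate 4 of the wild types lay among the mutants, and the other 3 lay above them. The difference was -0.40 ± 0.12, a 1.32-fold difference with a 95% interval of -0.65 to -0.14 (limma adjusted p = 0.166). Without replicate 4 of the wild types at 1 year it was -0.51 and passed the threshold (limma adjusted p = 0.0315).

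At 1 month Egflam lay at -1.92, -1.93, -1.75 and -2.20 in the mutants, against -2.05, -2.18, -1.96 and -2.06 in the wild types. Once more 3 mutants were above every wild type and replicate 4 was below them. The difference was 0.11 ± 0.12 (limma adjusted p = 0.724), and the effect at 1 year minus that at 1 month was -0.51 ± 0.17 (limma adjusted p = 0.242). Replicates 2 and 3 have the female pattern, and without arrays of that pattern the 1-month difference was 0.00 and the difference of effects -0.40. Only replicates 1 and 4 of the mutants at 1 month remain in these values. Without replicate 4 of the mutants they were 0.19 and -0.59 (limma adjusted p = 0.340 and 0.110). Within the mutants Egflam fell by 0.43 ± 0.12 at 1 year relative to 1 month, a 1.34-fold difference (limma adjusted p = 0.0484), and the 2 ages did not overlap, as in 13.8% of all genes. In the wild types the change was 0.08 ± 0.12 (limma adjusted p = 0.701). The call in the mutants held in 2 of 8 fits that left out 1 array, those without replicate 4 at 1 month and without replicate 3 at 1 year, and without the arrays with a female pattern the change was -0.32 (limma adjusted p = 0.485).

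The window before the first annotated Egflam start is shown because Egflam was the member with the smallest adjusted p between genotypes at 1 year. It lies at chr15:7398396-7398645 on the minus strand (RefSeq, GRCm38.p6).
Egflam start 1: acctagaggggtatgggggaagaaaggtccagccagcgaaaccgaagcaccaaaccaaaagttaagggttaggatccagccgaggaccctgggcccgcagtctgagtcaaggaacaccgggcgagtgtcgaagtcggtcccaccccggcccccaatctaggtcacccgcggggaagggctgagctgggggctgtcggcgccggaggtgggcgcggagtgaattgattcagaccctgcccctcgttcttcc
It holds neither TAATCC nor TGCTGA on either strand, so no letter is in capitals. A second annotated start lies 5 bases further on, and its window held neither motif as well. Cabp4 and Cacna2d4 had no entry in the promoter table.

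Dag1 encodes dystroglycan, the receptor for pikachurin, which Müller glia and other cells also make. It lay at 1.56, 1.53, 1.55 and 1.63 in the mutants at 1 month, against 1.40, 1.45, 1.37 and 1.14 in the wild types at 1 month. The 4 mutants all lay above the 4 wild types, the one member to separate at 1 month, where the groups did not overlap in 8.53% of all genes. The difference was 0.23 ± 0.10 (limma adjusted p = 0.302). At 1 year Dag1 overlapped between the groups and the difference was 0.06 ± 0.10 (limma adjusted p = 0.885), with 0.24 on slide 1 and -0.13 on slide 2. Muscle markers, a cell type that also makes dystroglycan, had higher values at 1 month: the mean of 7 markers ran from 1.79 to 3.01 in the mutants, against 0.49 to 1.62 in the wild types, and their part in the Dag1 difference was not tested.

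Other genes of the same machinery were taken from 5 lists of partners. Between genotypes 0 of their 64 tested genes were called by limma at either age, where 2.72% of all genes were at 1 month and 0.857% at 1 year. An unadjusted p under 0.05 was found for 6 of them at 1 month and 7 at 1 year, against 15.2% and 11.4% of all genes. Of 13 ribbon and active zone partners the median change was -0.01 at 1 month and 0.02 at 1 year. The scaffold genes Rims1 and Rims2 were -0.26 ± 0.29 and -0.10 ± 0.07 at 1 year. Of 12 calcium channel and calcium handling genes the median was 0.04 at both ages. The channel beta subunit Cacnb2 was -0.34 ± 0.13 and Cacna1d, a related L-type pore, 0.28 ± 0.11 at 1 year (limma adjusted p = 0.277 and 0.310).

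Vesicle fusion and transport partners, 16 genes, had medians of 0.05 at 1 month and -0.05 at 1 year. The complexin genes of ribbon synapses, Cplx4 and Cplx3, were -0.21 ± 0.13 and 0.16 ± 0.12 at 1 year. The 14 partners of dystroglycan and its glycosylation had medians of 0.03 and -0.04, with dystrophin (Dmd) at -0.24 ± 0.09 and Sgcb at 0.23 ± 0.12 at 1 year. The trans-synaptic organisers had medians of 0.08 and 0.02 over 9 tested genes of 11, and Lrit1 was -0.29 ± 0.16 at 1 year. Elfn1, which links rods to the bipolar glutamate receptor, was well above background on 0 of 16 arrays and was not tested.

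**Figure D4:**
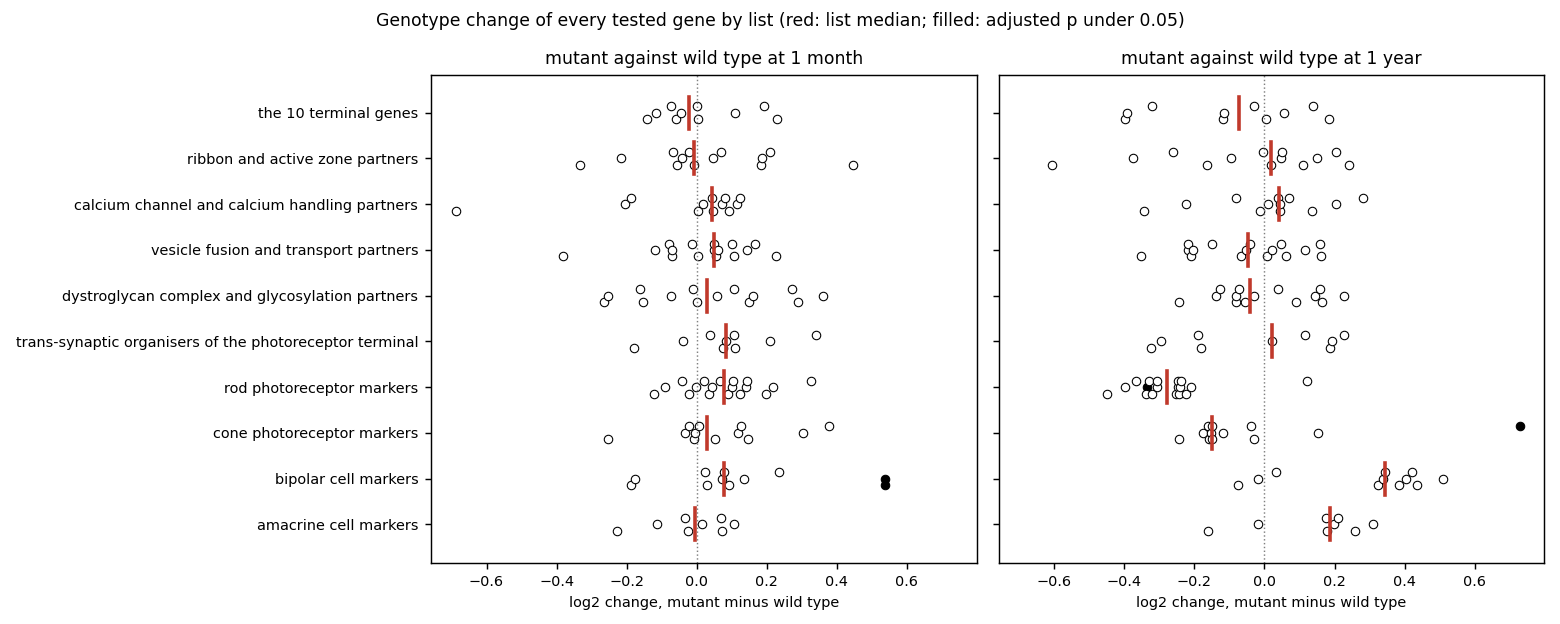
Log2 change (x axis, mutant minus wild type) of every tested gene of the terminal set, of 5 partner lists and of 4 marker lists (y axis) at 1 month and at 1 year, with the list median as a red bar and filled points for adjusted p under 0.05. At 1 year the rod markers sit left of zero with a median of -0.28, the terminal genes spread across zero with a median of -0.07, and the bipolar markers lie mostly right of zero.

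With age, all partner calls were downward, and the genes named here were chosen after their values were seen. In the mutants 6 of 64 were called, where 6.70% of all genes were and 2.93% downward: the syntaxin of ribbon synapses Stx3 fell by 0.47 ± 0.10 (limma adjusted p = 0.0123), Unc119 by 0.30, the chloride channel Ano2 by 0.58, Lrit2 by 0.48, and the dystroglycan O-mannosyltransferase genes Pomt1 and Pomt2 by 0.35 and 0.45. These calls held in all 8 fits that left out 1 array for Stx3, in 4 for Pomt2, in 3 each for Unc119, Ano2 and Pomt1 and in 2 for Lrit2. Among wild types 3 of 64 were called, where 12.4% of all genes were and 5.05% downward: Cacna1d fell by 0.46 ± 0.11 (limma adjusted p = 0.0128), Cacnb4 by 0.46 and Pomt2 by 0.47. The Cacna1d and Pomt2 calls held in all 8 fits without 1 array, and the Cacnb4 call in 2. Pomt2 was the 1 partner called in both genotypes.

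Rod markers were read beside Cabp4 and Egflam in the same comparisons. At 1 year 17 of 18 rod markers had negative genotype changes, with a median of -0.28. Of the 18, 16 had an unadjusted p under 0.05, as did 11.4% of all genes, and 1 was called, rod transducin Gnat1 (-0.33 ± 0.06, limma adjusted p = 0.0246), whose call held in 1 of 8 fits that left out 1 array (limma adjusted p up to 0.0897) and in 6 of 16 other settings. The mean of the 18 rod markers ran from 6.14 to 6.32 in the mutants at 1 year, against 6.44 to 6.58 in the wild types at 1 year, with no overlap. Read gene by gene, the groups did not overlap at that age in 7.83% of all genes. At 1 month the rod marker mean ran from 6.36 to 6.67 in the mutants, against 6.43 to 6.64 in the wild types.

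Over age in the mutants, all 18 rod markers had negative changes, with a median of -0.30 and 9 called lower, where 2.93% of all genes were called lower and 40.2% had positive changes. Of the 9, Gnat1, Nrl, Pdc and Rcvrn held in all 8 fits that left out 1 array, Pde6b in 6, Prph2 and Rp1 in 3 each, and Pde6g and Rom1 in 2 each. Over age in the wild types the rod marker median was -0.02, with 0 called by limma. An unadjusted p under 0.05 was found there for 3 rod markers, and the matching share of all genes was not computed. The falls in the mutants were not confined to rod markers. Of 12 cone markers 11 had negative changes (median -0.33, 3 called lower). So had all 8 ganglion cell markers (median -0.38, 0 called) and all 9 RPE markers (median -0.22, 1 called lower). Negative changes were also found for 7 of 8 amacrine (1 called lower), 5 of 6 horizontal (2 called lower) and 8 of 11 bipolar markers (0 called). In contrast, 9 of 10 microglia and 6 of 8 Müller glia markers were positive. Of these lists 4 and 2 markers were called higher, where 6.70% of all genes were called in either direction. Of the 10 terminal genes, 9 had negative changes in the mutants, from Egflam (-0.43) and Cabp4 (-0.42) through Unc13b (-0.31), Ctbp2 (-0.30), Slc17a7 (-0.29) and Cacna1f (-0.17) to Dag1 (-0.01), and differences between these genes were not tested. Ctbp2, Unc13b, Pclo, Cacna1f and Cacna2d4 had negative age changes in both genotypes. The part of the rod marker values in the Cabp4, Egflam and Slc17a7 results was not tested.

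Markers of other cells that make some of these proteins were also read. Bipolar cells, which have ribbons too, had a median marker change of 0.35 at 1 year with 0 of 11 called by limma and 8 with an unadjusted p under 0.05, and of 0.08 at 1 month with Grm6 and Nyx called higher. Of all genes tested, 2.72% were called between genotypes at 1 month in either direction and 0.857% at 1 year. Microglia marker means did not overlap at 1 month, with -0.01 to 0.15 in the mutants against -0.40 to -0.31 in the wild types and 4 of 10 called higher. Read gene by gene, the groups did not overlap at that age in 8.53% of all genes. Erythrocyte marker means ran from -1.01 to 2.98 in the mutants at 1 month, against -2.60 to -1.07 in the wild types at 1 month. The part of these markers in the results was not tested. Of the cone markers 10 of 12 had negative genotype changes at 1 year, with a median of -0.15, where 47.2% of all genes had positive changes. The 1 called, Gnb3, went against these 10 and was higher (0.73 ± 0.14, limma adjusted p = 0.0210). RPE markers had a median of 0.66 at 1 month, with 5 of 9 called higher, and of -0.48 at 1 year, with 0 called by limma and 6 with an unadjusted p under 0.05. The mean of the RPE markers ran from 3.37 to 3.86 in the mutants at 1 year, against 3.68 to 4.13 in the wild types at 1 year. With the RPE mean as a covariate, an alternative chosen after the data were seen, Cabp4 was -0.34 and Egflam -0.41 at 1 year. The RPE mean itself averaged 3.64 in the mutants and 4.00 in the wild types at 1 year. It thus shifted with genotype, and this fit cannot tell the part of the RPE markers in these values from genotype.

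The levels of the 10 genes were set against each other over the 16 arrays. Of their 45 pairs 33 had a positive Pearson r of level, with a median of 0.32. The highest were Ctbp2 with Unc13b (0.83), Cabp4 with Egflam (0.80) and Pclo with Unc13b (0.75). Dag1 had a negative r with each of the other genes, most negative with Pclo (-0.65) and Unc13b (-0.64). The remaining negative pairs were Bsn with Slc17a7 (-0.18), Bsn with Cabp4 (-0.16) and Pclo with Slc17a7 (-0.08). The share of positive r over all pairs of genes tested was not computed. Taking each array's deviation from its group mean, 34 pairs were positive, Pclo and Unc13b had an r of 0.86 and Ctbp2 and Cabp4 0.85. These arrays share group, slide and tissue mixture, so the r values are descriptions.

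**Figure D5:**
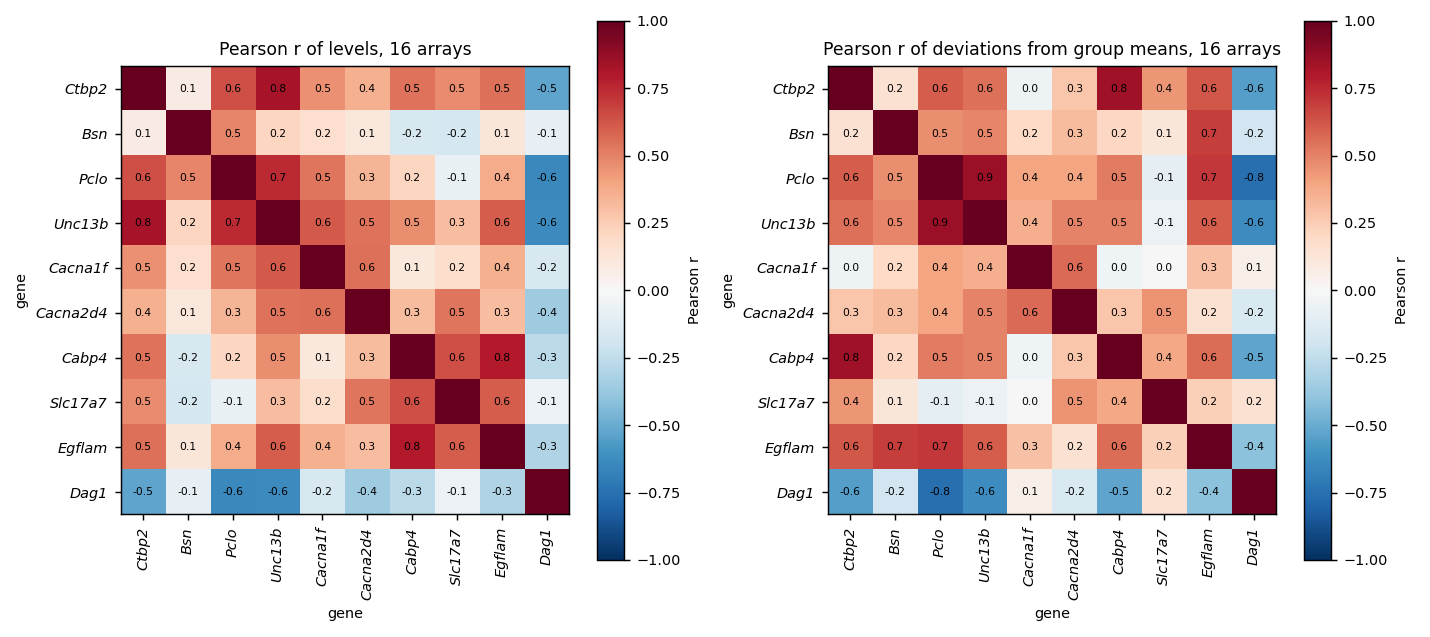
Pearson r between the levels of each pair of the 10 genes (both axes) over 16 arrays, for the levels themselves and for their deviations from the group means, with red for positive and blue for negative r. Ctbp2, Pclo and Unc13b are positive with each other and negative with Dag1, and Cabp4 and Egflam have an r of 0.80.

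Over all genes tested, the levels most like Ctbp2 on the 16 arrays were those of Slc1a7 (r = 0.97), Pih1d2 (0.97) and Uqcc3 (0.96), and the most opposite those of Neat1 (-0.94), Tap2 (-0.93) and Runx1 (-0.93). For Cabp4 they were Stx3 (0.94), Susd3 (0.92) and Cnga1 (0.92), a subunit of the rod cyclic nucleotide-gated channel, with Mboat1 (-0.89), Wnt7b (-0.87) and Pxmp2 (-0.85) at the other end. For Egflam they were Cnot6 (0.92), Prdm9 (0.90) and Rp1l1 (0.90), with Tcap (-0.85), Alox5 (-0.83) and Prr15 (-0.83) at the other end. Each r rests on 16 arrays and was picked as an extreme of the genes left from the 19022 tested, whose number was not recorded.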

How the data were processed

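The labelled samples, 1 array each, were grouped by the genotype and age in their labels. The deposited spot intensity had been background-subtracted, per the file headers, and the submitters' processing notes name Agilent Feature Extraction 11.0.1.1. It was log2 transformed here, the array's 75th percentile (603 to 994) was subtracted, and spots of a probe were averaged without outlier spots. A matrix of log2 values that the authors deposited served as an alternative, and its normalization is not given in the sources used here. Probes with signal well above background on 4 or more arrays were kept (49230), named through RefSeq's GRCm38.p6 gene table, and the brightest per gene was used (19022 genes). limma 3.58.1 (R 4.3.3) fitted 4 group means, with two-sided Benjamini-Hochberg adjusted p over all genes and a threshold of 0.05, and the procedure was tested on simulated data. Nothing beyond the replicate number says how the mice were bred or batched. No mean-signal column stood in the scanner files, so normexp used the median signal. The members, lists and tests were chosen with earlier results of these data known. All members were named, with the first 2 genes of each partner list and those called between genotypes. Protein sequences were not used here.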

Additional observations from a re-analysis of the deposited data

Results flagged for a closer look

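A single array stood apart from the other 3 of its group in 4 of 52 combinations of probe and group tested by Dixon's criterion, which chance alone meets in about 1 of 20. Cacna1f lay at 3.19 on replicate 1 of the wild types at 1 month, where the nearest of the other 3 was 2.78. Ctbp2 lay at 4.37 on replicate 4 of the wild types at 1 month, with the nearest at 4.15, and the Ctbp2 age call in the wild types was lost without this array. The same array was the high one for the Pclo probe A_55_P2014750, at 0.64 with the nearest at 0.21. The Pclo probe A_52_P336904 lay at -2.50 on replicate 2 of the mutants at 1 year, with the nearest at -2.07.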

How the results depend on the processing

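Between genotypes at 1 month 0 genes were called under every alternative run. At 1 year the count was 0 except for 1 (Egflam) without replicate 4 of the wild types, a range of 0 to 1 over fits leaving out 1 array, and the difference between ages ranged likewise from 0 to 1 (Cabp4 without replicate 4 of the mutants at 1 month). In the mutants over age, the 2 calls became 0 with the RPE marker mean, array row or female pattern as a covariate, with no filter on dim probes, with only the groups compared, on slide 1 or slide 2 alone, with slide as a block and without the arrays with a female pattern. They became 1 (Egflam) with normexp and with the replicate number as a block, and 0 to 3 when leaving out 1 array. With the deposited matrix and with quantile normalization the count was 2 as well, but Egflam was lost (limma adjusted p = 0.187 and 0.164) and Ctbp2 gained (limma adjusted p = 0.0356 and 0.0332). In the wild types over age, the 1 call became 0 with the RPE or lens marker mean as a covariate, with the replicate block and on either slide alone, 2 (Ctbp2 and Pclo) with the mean of a gene's probes, and 0 to 2 when leaving out 1 array. Over all 13 member probes and all 5 contrasts, the 1 probe call became 2 with the deposited matrix, quantile normalization or the female pattern as a covariate. Which probes and contrasts made up these 2 was not recorded. The count became 0 with slide as a block, on either slide alone or without the arrays with a female pattern. The cause of these shifts was not tested. Replicate numbers did not pair the arrays: deviations of 24 same-numbered pairs had r of -0.54 to 0.30, and 2 of 16 arrays correlated best with their own number. The replicate block gave 0 calls between genotypes at both ages. Over all settings, values of the members kept their direction and side of the threshold in 1219 cases, lost a call in 44 and gained one in 7, and uncalled values near zero that turned sign count among the first. The called values of partners and rod markers were kept in 299 cases and lost their call in 188. With 4 arrays per group, the standard errors of a member's change were 0.09 to 0.13, which limits what could be called.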
